A study of Mus musculus with 8 samples.

Results

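The genes described here build the spectrin membrane skeleton: the spectrin chains Sptan1, Sptb and Sptbn1, the ankyrins Ank1, Ank2 and Ank3, and Tmod1, Epb41 and Add1, whose products act at the short actin filaments that spectrin joins. They were taken as a list, by name, and are 9 of 19556 protein-coding genes with curated RefSeq transcripts and a length of 1 kb or more on the mouse genome (GRCm38). For each gene, all peaks that overlapped the gene body or the 50 kb on either side were taken from 4 deposited peak lists. The member windows held 376 peaks of the embryonic epithelium list, 758 of the embryonic fiber list, and 164 and 173 peaks of the newborn epithelium and fiber lists.

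The lists come from ATAC-seq, in which the transposase Tn5 cuts open chromatin and attaches sequencing adaptors to it. Lenses of CD1 mice, an outbred stock, were micro-dissected into lens epithelium and lens fibers before birth (embryonic stage E14.5) and just after it (postnatal stage P0.5). Each of the 4 groups has 2 libraries, and none carried an engineered allele or received a treatment. Each library held several lenses, and each list pools the 2 libraries of its group, so no value below has a replicate error and no difference between lists was tested. The depth behind the lists cannot be read from them. In bulk tissue, a larger share of cells with open chromatin and more open chromatin per cell cannot be told apart.

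Spectrin forms long flexible rods from α chains (Sptan1) and β chains (Sptb, Sptbn1). The rods are tied to membrane proteins by ankyrins, and their ends meet at short actin filaments, where protein 4.1R (Epb41) and adducin (Add1) strengthen the junction and tropomodulin 1 (Tmod1) caps the pointed end of the filament. This network is known best from red blood cells, where it uses Sptb, Ank1, Epb41, Add1 and Tmod1. In lens fibers, which elongate and pack into hexagonal rows, a spectrin-actin network lines the membrane, and Tmod1 is known to keep that packing regular.

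Where 4 values follow each other below, they stand in the order embryonic epithelium, embryonic fibers, newborn epithelium, newborn fibers. The lists differ in length, with 100003, 123743, 58592 and 62995 peaks, and in median peak width, with 226, 298, 209 and 185 bp. Coverage, its ratios, promoter counts and merged peaks are therefore read against the values of all genes or all merged peaks. A peak's place is its rank by fold enrichment within its own list, as a percent of the list, so that a low percent is a high place. Over 99% of the peaks share their rank with others, and the places come in steps. In P0.5 fibers only 48.9% of the peaks have a q value under 0.001, against 80.5% or more in the other lists.

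Gene body coverage, the share of gene body bases that lie under a peak, was highest in E14.5 fibers for all 9 genes, as it was for 63.4% of all 19556 genes and for 78.0% of the 4030 genes at least as long as the shortest member (58.6 kb). Its median over the 9 was 3.56%, 16.6%, 1.22% and 1.84%. The medians over all genes were 2.55%, 4.06%, 1.39% and 1.29%. The 9 genes are long, and coverage was lower in long genes. Over the 4030 genes of that length the medians were 1.29%, 2.06%, 0.755% and 0.60%. The median of the members lay above that of long genes in each list, and in P0.5 epithelium it lay below that of all genes. Coverage was at least 2 times as high in E14.5 fibers as in E14.5 epithelium for 6 members (Sptan1, Sptbn1, Ank2, Tmod1, Epb41 and Add1), beside 24.3% of the 15141 genes covered in both lists. The ratio was above the all-gene median of 1.40 for 8 of the 9, Ank1 being the exception.

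At P0.5 the same comparison did not single out fibers. Tmod1 was the 1 member with at least 2 times the coverage in P0.5 fibers, beside 12.1% of all genes covered in both lists. That count was 0 with a q value under 0.001 and 3 without the first 2 kb of each gene. Coverage was higher in P0.5 fibers for 4 members and higher in P0.5 epithelium for 5. With a q value under 0.001 Sptan1 and Tmod1 turned to higher in epithelium, which left 2 members higher in fibers. On the whole lists, Sptbn1, Ank2 and Ank3 had less than 0.5 times the epithelial value, as 13.7% of all genes did. With predicted transcripts Sptbn1 was at 0.732 times and left this group. From E14.5 to P0.5, fiber coverage was at least 2 times as high at the earlier stage for 9 of 9 members, where 64.5% of all genes met that mark. The median ratio was 2.54 over all genes and 3.56 over the long ones, and those of Ank1 (2.82) and Add1 (2.96) lay between the 2 medians. In epithelium it was so for 6 of 9 members, beside 35.3% of all genes. The name of the list assigns this skeleton to fibers. At E14.5, Sptb, Ank1 and Ank3 had ratios of 1.66, 1.24 and 1.68, near that of all genes, and the other 6 had 3.50 or more. At P0.5 the ratio was 2.92 for Tmod1 and between 1.27 and 1.54 for Sptan1, Add1 and Epb41, where the median was 0.964 over all genes and 0.836 over the long ones.

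**Figure D1:**
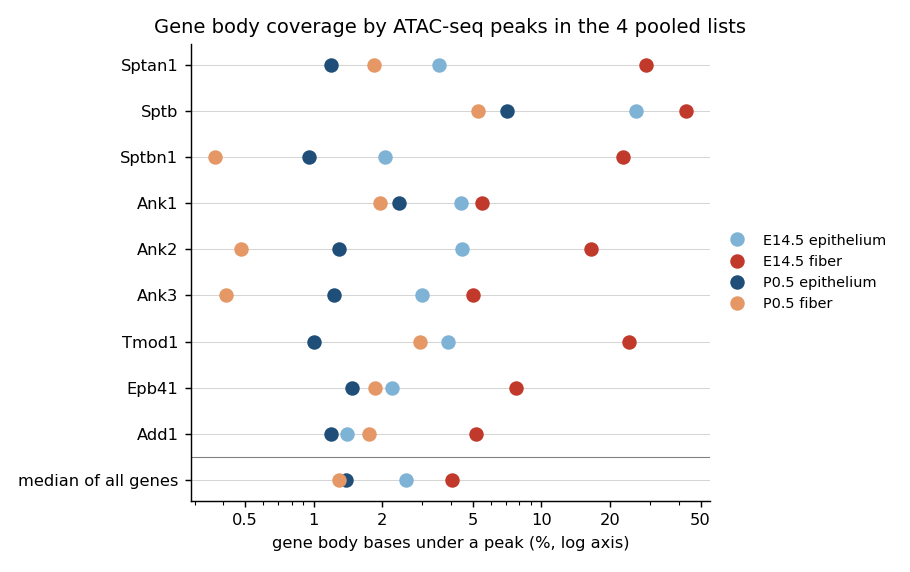
Gene body bases under a peak (percent, log axis) for the 9 genes and for the median of all protein-coding genes of at least 1 kb; each dot is 1 pooled list, with no error. The E14.5 fiber dot lies farthest right in every row, between 5.01% and 43.3% for the 9 genes and at 4.06% for all genes.

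Sequences are shown first for the start sites of Sptbn1 and for the start of Ank2 with the highest places. For each, the 150 bases before the start are given 5′ to 3′ on the coding strand, which is the minus strand of GRCm38 for both genes, with every CpG in capitals. RefSeq supplied the promoter sequences of 7 of the 9 genes, 13 starts in all. The lines are, in order, the first curated start of Sptbn1 (chr11:30219773-30219922), its second curated start (chr11:30198258-30198407), the outermost predicted start of Sptbn1 (chr11:30268385-30268534, read from the genome) and the second start of Ank2 (chr3:127409059-127409208).
Sptbn1 first start: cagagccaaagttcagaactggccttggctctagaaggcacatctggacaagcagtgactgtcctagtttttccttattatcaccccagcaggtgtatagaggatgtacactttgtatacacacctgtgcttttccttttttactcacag
Sptbn1 second start: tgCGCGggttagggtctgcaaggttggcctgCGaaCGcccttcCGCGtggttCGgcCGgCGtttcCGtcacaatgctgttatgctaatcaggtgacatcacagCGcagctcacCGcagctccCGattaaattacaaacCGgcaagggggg
Sptbn1 predicted start: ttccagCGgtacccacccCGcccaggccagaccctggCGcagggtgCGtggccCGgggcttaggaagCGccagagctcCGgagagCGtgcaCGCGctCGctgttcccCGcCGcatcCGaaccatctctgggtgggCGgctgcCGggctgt
Ank2 second start: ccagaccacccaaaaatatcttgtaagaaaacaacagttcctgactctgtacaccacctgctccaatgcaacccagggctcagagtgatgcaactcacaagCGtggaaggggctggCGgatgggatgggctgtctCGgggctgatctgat
In the whole 250 bases before each start, the first Sptbn1 start held 2 CpG, the second 20, the predicted start 21 and the Ank2 start 3, where the median over 32851 promoters was 6.

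A second set shows the highest-placed intronic peak of E14.5 fibers, in the 6 genes where it stood highest, among peaks outside promoters whose 200 bp around the summit touch no exon. The Sptbn1 peak in intron 14, described below, is left out because that stretch touches an exon. Each line gives 200 bp around the summit on the plus strand of GRCm38, with matches to 5 short motifs in capitals. The letters searched for Maf factors, which switch on crystallin genes, were TGCTGA. For Sox factors the letters CATTGT were searched in the same windows. For Tead factors, which act in Hippo signalling, they were GGAATG. AP-1 was read as TGANTCA, where N is any base. Gata factors were read as AGATAA. Each was read on both strands, and a Maf and an AP-1 match can share bases. The windows are chr2:29967883-29968082 for Sptan1, chr12:76675401-76675600 for Sptb, chr3:127387136-127387335 for Ank2, chr10:69957900-69958099 for Ank3, chr4:46099106-46099305 for Tmod1 and chr4:132062354-132062553 for Epb41.
Sptan1 intron 1: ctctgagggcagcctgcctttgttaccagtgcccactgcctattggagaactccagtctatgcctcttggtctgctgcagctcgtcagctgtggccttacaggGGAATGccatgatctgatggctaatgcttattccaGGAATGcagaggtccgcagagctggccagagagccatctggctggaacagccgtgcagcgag
Sptb intron 1: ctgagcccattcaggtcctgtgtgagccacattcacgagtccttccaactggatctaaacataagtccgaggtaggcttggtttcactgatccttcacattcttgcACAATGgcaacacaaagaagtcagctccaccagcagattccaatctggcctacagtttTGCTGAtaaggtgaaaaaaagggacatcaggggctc
Ank2 intron 1: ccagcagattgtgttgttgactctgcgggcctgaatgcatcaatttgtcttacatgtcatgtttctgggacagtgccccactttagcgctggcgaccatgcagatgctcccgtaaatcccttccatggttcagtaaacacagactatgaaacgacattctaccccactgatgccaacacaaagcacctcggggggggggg
Ank3 intron 28: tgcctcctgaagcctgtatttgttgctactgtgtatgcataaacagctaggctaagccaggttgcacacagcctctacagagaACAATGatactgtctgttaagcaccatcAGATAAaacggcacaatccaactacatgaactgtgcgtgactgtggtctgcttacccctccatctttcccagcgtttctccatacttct
Tmod1 intron 8: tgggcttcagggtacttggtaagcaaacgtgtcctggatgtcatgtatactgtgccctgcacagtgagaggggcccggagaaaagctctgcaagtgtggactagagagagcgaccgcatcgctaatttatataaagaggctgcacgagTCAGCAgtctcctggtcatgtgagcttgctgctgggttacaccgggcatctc
Epb41 intron 1: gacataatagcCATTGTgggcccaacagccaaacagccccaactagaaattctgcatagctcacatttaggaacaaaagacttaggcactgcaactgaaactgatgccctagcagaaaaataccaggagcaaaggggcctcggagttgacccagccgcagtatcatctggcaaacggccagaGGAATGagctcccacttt
The Sptan1 window held 2 Tead matches, and the Sptb window a Maf and a Sox match. The Ank3 window held a Sox and a Gata match, the Tmod1 window a Maf match and the Epb41 window a Sox and a Tead match. The Ank2 window held none of the 5, which says only that these letters are not in these 200 bases.

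Sptan1 encodes αII-spectrin, the α chain of most cells other than red cells. Its gene body (chr2:29965560-30031451, 65.9 kb, plus strand) was covered to 3.56%, 28.7%, 1.2% and 1.84%. The E14.5 fiber value was 8.07 times the epithelial one, a ratio at percentile 99.3 of all genes, and 15.6 times that of P0.5 fibers. With equal numbers of peaks the ratios were 3.61 and 5.69. The gene body held 7, 45, 2 and 7 peaks in the order of the lists. Its promoter peak was called everywhere and stood high, at 1.38%, 1.68%, 7.95% and 1.22% of the lists. The intronic peak printed above, 2.42 kb from the start, was also called in every list, at 6.26%, 5.47%, 16.5% and 15.7%. The sites of high place were thus shared, whereas 38 of the 48 merged peaks of the gene body were called in E14.5 fibers only, a pattern of 29.3% of all merged peaks, at a median place of 61.1%. When the gene was cut into 10 equal parts from its start, E14.5 fiber coverage was highest in part 5, at 61.8%, where that of epithelium was 4.90%. The widest peak there, with its summit in intron 11 (chr2:29991042-29993176), measured 2135 bp.

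Sptb encodes the β chain of red cell spectrin. Of the 9 genes it had the highest coverage in every list, with 26.1%, 43.3%, 7.09% and 5.28% of its gene body (chr12:76580488-76710547, 130.1 kb, minus strand). Among the 4030 long genes these values lay at percentiles 99.9, 99.8, 99.6 and 98.1. The E14.5 fiber to epithelium ratio was 1.66, close to the all-gene median. It held 69, 78, 31 and 29 gene body peaks, and 11 of its 89 merged gene body peaks were called in every list, a share of 12.4% beside 10.9% of all merged peaks. Its single promoter stood at 10.1%, 4.23%, 9.54% and 9.32%. The peak printed above, 35.0 kb into intron 1, stood at 5.66%, 4.66%, 20.5% and 18.2%. Its widest peak, 3767 bp, lay in intron 32 in the E14.5 fiber list (chr12:76592058-76595824) and ranked 324 by width among the 123743 peaks of that list. Coverage ran through the whole gene in both E14.5 lists and was highest in part 10 of 10, at 56.4% in epithelium and 64.3% in fibers.

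Sptbn1 encodes βII-spectrin, the widely expressed β chain. Its curated gene body (chr11:30099395-30219772, 120.4 kb, minus strand) was covered to 2.06%, 22.9%, 0.957% and 0.367%. The E14.5 fiber value was 11.1 times the E14.5 epithelial one, at percentile 99.6, and 62.3 times that of P0.5 fibers, at percentile 99.8, both the highest ratios of the 9 genes on curated gene bodies. With equal numbers of peaks these ratios were 5.94, below the 6.51 of Tmod1, and 31.2. With a q value under 0.001 the first was 10.2, and P0.5 fibers were listed at 0. The gene body held 4, 65, 3 and 3 peaks, and 60 of its 67 merged peaks were called in E14.5 fibers only, at a median place of 58.1%. An exception in place was a peak of 3070 bp in intron 14 (chr11:30136712-30139781), 81.4 kb from the first start, which stood at 3.67% of the E14.5 fiber list. The E14.5 epithelium list had a short peak within it at 77.7%, the P0.5 fiber list 1 at 48.9%, and the P0.5 epithelium list none. That peak lies in part 7 of 10, where coverage was 65.7% in E14.5 fibers and 1.32% in E14.5 epithelium.

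The starts of Sptbn1 behaved unlike each other. The first curated start, with 2 CpG, had no peak within 1 kb in any list. The second curated start lies 21.5 kb downstream, has 20 CpG, and had a peak in 3 lists, at 12.1%, 11.1% and 17.2%, and none in P0.5 fibers. The peak with the highest place in the window, in every list, lay outside the curated gene body and upstream of it. It stood at 5.09%, 2.52%, 3.28% and 0.779% and was 2315, 2406, 2141 and 2208 bp wide. It covers the predicted RefSeq starts of Sptbn1 at −47.8 and −48.6 kb from the first curated start, and the curated start of Gm8098, a noncoding RNA gene on the opposite strand. These peaks do not tell which of the starts they belong to. Counting predicted transcripts lengthens the Sptbn1 body to 169.0 kb and gives coverages of 2.80%, 22.8%, 1.74% and 1.27%, ratios of 8.14 between E14.5 tissues, 0.732 between P0.5 tissues and 17.9 between fiber stages, and a promoter peak in all 4 lists. The ratio between fiber stages was then below that of Ank2, at 34.7. The E14.5 fiber excess in the gene body therefore held under both annotations, and the missing promoter peak of P0.5 fibers did not.

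Ank1 encodes the ankyrin of red cells, and it was the member with the smallest difference between E14.5 tissues. Its gene body (chr8:22974836-23150497, 175.7 kb, plus strand) was covered to 4.42%, 5.49%, 2.38% and 1.95%, and the E14.5 ratio of 1.24 lay at percentile 38.8. It held 18, 19, 11 and 14 peaks. Of its 30 merged gene body peaks, 5 were called in E14.5 fibers only and 5 in every list. Its highest-placed peak outside its own promoters, at the 3′ end (chr8:23149388-23150435), stood at 13.3%, 9.76%, 17.2% and 15.7%. That peak overlaps the gene Gm15816 and lies within 2 kb of a start of Gm15816. Ank1 has 4 curated start groups. The first had peaks at 21.7%, 17.1%, 26.3% and 26.4%, and start 3, 83.4 kb downstream, at 33.9%, 20.1%, 36.4% and 18.2%. Starts 2 and 4 were called in 2 and 3 lists, at places no higher than 26.4%.

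Ank2 encodes ankyrin-B, which links spectrin to ion transporters and adhesion proteins. It is the longest member (chr3:126921607-127499115, 577.5 kb, minus strand) and held 96, 246, 23 and 16 gene body peaks. Coverage was 4.47%, 16.6%, 1.29% and 0.480%. The E14.5 fiber value was 3.70 times the epithelial one and 34.5 times that of P0.5 fibers, at percentiles 95.1 and 99.5. Of 268 merged gene body peaks, 173 (64.6%) were called in E14.5 fibers only and 49 (18.3%) in both E14.5 tissues. Over all merged peaks these shares were 29.3% and 11.4%. The excess began at the second start. Between the first start and 1 kb before the second, a stretch of 89.1 kb, there were 6, 4, 3 and 2 peaks and E14.5 coverage was lower in fibers, at 1.75%, than in epithelium, at 2.28%. In the remaining 488.5 kb there were 90, 242, 20 and 14 peaks and coverage was 4.87% and 19.3%. This split was chosen after the values were seen.

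The second start of Ank2, 90.1 kb from the first, had the gene's highest promoter place in every list, at 3.73%, 1.85%, 4.22% and 8.49%. The first start, with 19 CpG in its 250 bases, stood at 18.3%, 15.3%, 22.5% and 34.7%. The second start has only 3 CpG, so its place was higher with fewer CpG, the reverse of Sptbn1. Starts 3 and 4, 500.7 and 555.7 kb from the first, were called in both E14.5 lists at 38.0% or lower places, and start 4 also in P0.5 fibers. The printed intronic peak, 111.9 kb from the first start (chr3:127386193-127387769), was called in every list at 5.15%, 3.46%, 12.3% and 11.4%.

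**Figure D2:**
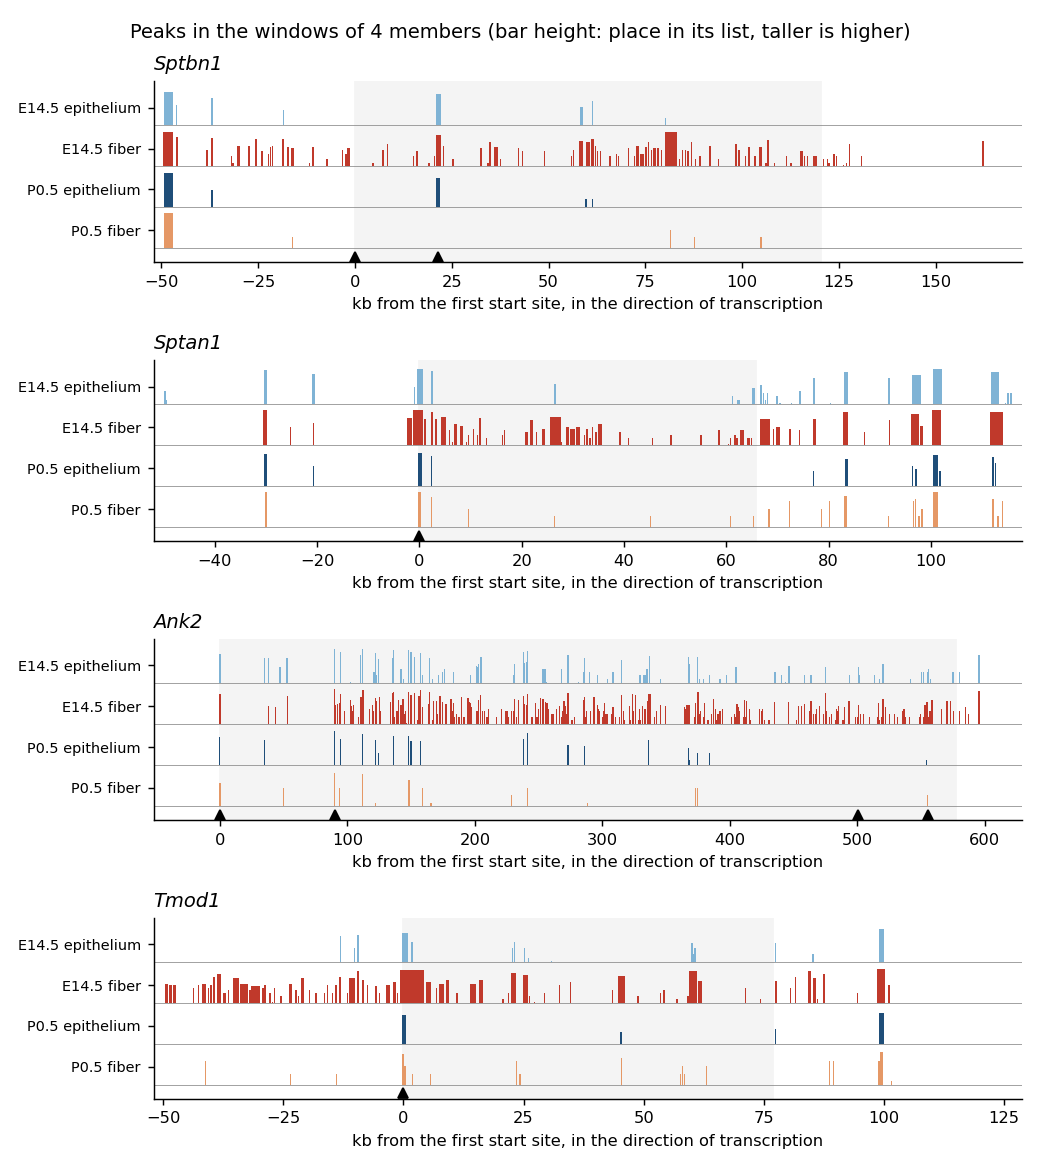
Peaks in the windows of Sptbn1, Sptan1, Ank2 and Tmod1 by distance from the first curated start (kb, in the direction of transcription), 1 row for each pooled list; bar height is the place in its list (full height is the top of the list), narrow peaks are drawn at a minimum width, the grey field is the curated gene body and triangles mark curated starts. E14.5 fibers hold 97, 62, 250 and 82 peaks in these windows, and the Ank2 row fills only from the second triangle on.

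Ank3 encodes ankyrin-G, known for the assembly of lateral membranes in epithelia. Its gene body (chr10:69533708-70027436, 493.7 kb, plus strand) was covered to 2.97%, 5.01%, 1.22% and 0.414%, with 56, 66, 32 and 10 peaks. The E14.5 fiber to epithelium ratio was 1.68, at percentile 64.5. At P0.5 fibers had 0.339 times the epithelial coverage, at percentile 6.28 of all genes and the lowest ratio of the 9. With a q value under 0.001 it had 0.0828 times, and Sptbn1 was lower, at 0. Its first start was called in both E14.5 lists only, at 26.4% in epithelium and 17.1% in fibers. The second start, 391.8 kb downstream, was called in the first 3 lists at 16.0%, 27.2% and 16.5%. P0.5 fibers had a peak at neither start. The printed peak in intron 28, 424.3 kb from the first start, was called in E14.5 fibers only and stood at 12.1%, the highest place of any E14.5 fiber-only peak of the 9 gene bodies. A peak called in every list, 248.0 kb from the start, stood at 14.8%, 13.3%, 24.9% and 14.0%.

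Tmod1 encodes the tropomodulin of red cells and lens fibers. Its gene body (chr4:46039222-46116032, 76.8 kb, plus strand) was covered to 3.87%, 24.3%, 1.0% and 2.92%, with 10, 28, 2 and 11 peaks. It was the only member with at least 2 times the coverage in fibers at both stages, with ratios of 6.26 at E14.5 (percentile 98.7) and 2.92 at P0.5 (percentile 94.5). The P0.5 ratio turned to 0.945 with a q value under 0.001. Without the first 2 kb it was 4.83, and Sptan1 and Add1 then also passed 2 times at P0.5, with 3.92 and 3.31. Its promoter peak stood at 19.5%, 6.71%, 18.0% and 14.0%. In E14.5 fibers that peak was 5067 bp wide, rank 89 by width in the list and the widest of all member peaks, where the promoter peaks of the other lists measured 1189, 748 and 338 bp. Part 1 of 10 of the gene was covered to 76.6% in E14.5 fibers and 19.9% in E14.5 epithelium. The printed intron 8 peak, 60.0 kb from the start, stood at 10.1% in E14.5 fibers and 46.8% in E14.5 epithelium and was absent from both P0.5 lists.

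The window of Tmod1 also held 44 E14.5 fiber peaks upstream of the gene, more than the 28 in its body. Of 42 merged upstream peaks, 36 were called in E14.5 fibers only, and 41 lay over the neighbouring gene Tdrd7, whose loss is known to cause cataract. The upstream signal cannot be assigned to either gene from these lists. Of the 4 merged peaks of the window called in fibers at both stages, 3 lay over Tdrd7 and 1 in intron 1 of Tmod1 (chr4:46043889-46044872), 5.53 kb from the start, at 40.2% and 69.2% of the fiber lists.

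Epb41 encodes protein 4.1R, which locks spectrin onto actin. Its gene body (chr4:131923413-132075313, 151.9 kb, minus strand) was covered to 2.22%, 7.76%, 1.47% and 1.86%, with 6, 19, 4 and 7 peaks. The E14.5 ratio was 3.50, at percentile 94.2. Open chromatin lay mostly at its 3 starts and near them. Part 1 of 10 was covered to 46.9% in E14.5 fibers and 11.5% in E14.5 epithelium, and parts 3 to 6 held no peak in either. The first start stood at 3.22%, 2.07%, 6.14% and 3.15%, and start 3, 26.2 kb downstream with 28 CpG, at 6.34%, 6.05%, 9.54% and 14.0%. The second start, only 3.22 kb from the first and with 2 CpG, differed more between lists: at E14.5 it stood at 50.8% in epithelium and 10.2% in fibers, and at P0.5 at 26.4% in fibers with no peak in epithelium. A peak overlapping the transcribed part beside it (chr4:132070542-132071268) was called in both fiber lists and neither epithelial one, at 22.1% and 21.4%, the highest places among the 19 such peaks of the 9 genes. The printed intron 1 peak, 12.9 kb from the start, stood at 10.7% in E14.5 fibers and 50.8% in E14.5 epithelium.

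Add1 encodes α-adducin, which caps the fast-growing end of actin filaments and recruits spectrin to it. Its gene body (chr5:34573664-34632308, 58.6 kb, plus strand) is the shortest and was covered to 1.41%, 5.15%, 1.19% and 1.74%, with 3, 10, 2 and 4 peaks. The E14.5 ratio was 3.67, at percentile 95.0, and without the first 2 kb the E14.5 epithelial coverage was 0.441% and that of fibers 3.55%. The promoter of Add1 had the highest place of the 9 genes in both E14.5 lists, at 1.10% and 0.494%. Over the 4 lists it stood at 1.10%, 0.494%, 4.65% and 1.36%. Outside the promoter, its highest-placed gene body peak of E14.5 fibers, 13.9 kb from the start, stood at 25.2% and was called in no other list. A peak in intron 4 (chr5:34607291-34607775) was called in both fiber lists only, at 36.0% and 69.2%.

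A peak within 2 kb of a curated start was present for 9, 9, 9 and 7 of the 9 genes, and it was P0.5 fibers where Sptbn1 and Ank3 lacked one. Over all 21000 protein-coding genes of any length the shares were 70.3%, 71.2%, 67.0% and 64.6%. The 9 genes have 19 curated start groups, and of these 18, 18, 12 and 13 had a peak within 1 kb in the 4 lists, 10 in every list and 1 in none. Over the 24168 start groups of all protein-coding genes the shares were 66.8%, 68.2%, 63.0% and 59.7%, and 55.9% in every list, so that only the E14.5 counts stood well above the background. The single-start genes Sptan1, Sptb, Tmod1 and Add1 were called at their start in every list. Among genes with several starts, the start with the highest place was the most upstream curated one in Epb41 and a downstream one in Sptbn1 and Ank2 in every list that called it. In Ank1 it was start 1 except in P0.5 fibers, where it was start 3. In Ank3 it was start 2 in both epithelial lists and start 1 in E14.5 fibers.

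**Figure D3:**
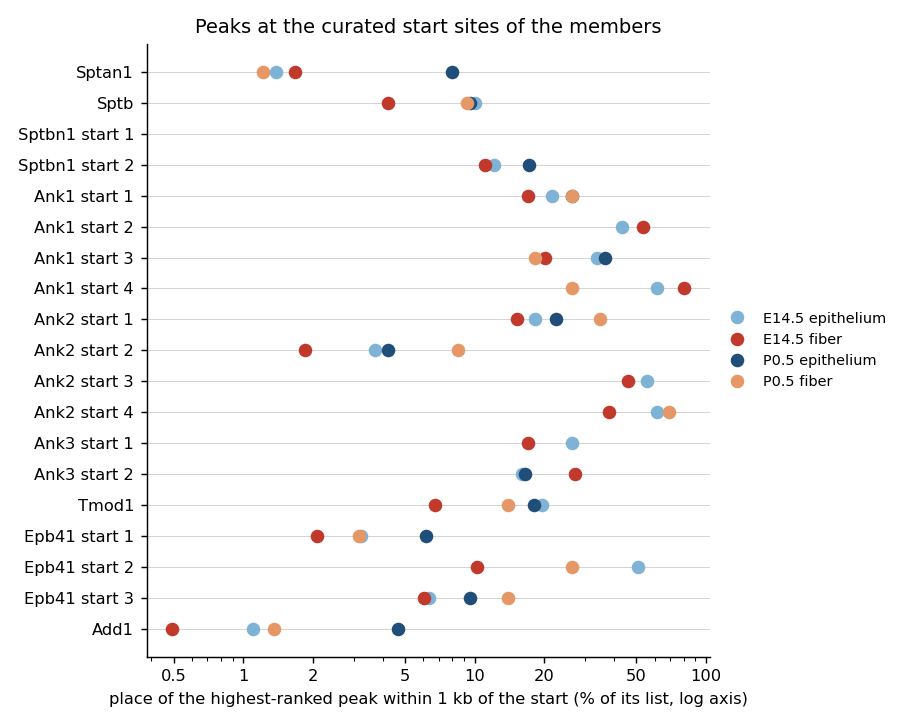
Place of the highest-ranked peak within 1 kb of each of the 19 curated start groups (percent of its list, log axis, left is higher); starts are numbered in the direction of transcription, each dot is 1 pooled list and a missing dot means no peak. Add1 and Sptan1 lie at the left, between 0.494% and 7.95%, start 2 of Ank2 lies left of its start 1 in all lists, and start 1 of Sptbn1 has no dot.

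When the peaks of the 4 lists were merged at a distance of 10 bp, the member windows held 877 of 185271 merged peaks, 661 of them over gene bodies. Of the 877, 473 were called in E14.5 fibers only, against 29.3% of all merged peaks. Their share ranged from 10 of 44 in the Ank1 window to 87 of 99 in the Sptbn1 window. It was 175 of 272 in the window of Ank2 and 67 of 92 in that of Tmod1. Windows of Ank1, Ank3 and Sptb held shares close to that of all merged peaks. The 371 of them in gene bodies had a median place of 64.1%, as did those over the whole genome, and 111 of the 371 stood in the upper 50% of the list, beside 14354 of 54306 over the genome. With equal numbers of peaks taken from each list, 127 of 407 merged peaks had this pattern, or 31.2%, beside 12.5% of all merged peaks under that setting, and the median coverage in E14.5 fibers was 8.80%. Of the 877, 56 were called in every list, against 10.9% of all merged peaks.

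Peaks that kept to 1 tissue at both stages were few, in the member windows and among all merged peaks alike. Both fiber lists and no epithelial list called 19 of 877, or 2.17%, against 2.43% of all merged peaks. With a q value under 0.001 it was 3 of 686, or 0.437%, against 1.08% of all. With equal numbers of peaks the order turned, at 11 of 407, or 2.70%, against 1.87% of all. The 19 comprised 4 in the window of Tmod1, 3 each in those of Ank2 and Epb41, 2 each for Sptan1, Sptbn1, Ank1 and Add1, 1 for Sptb and 0 for Ank3. Both epithelial lists and no fiber list called 5, against 2.28% of all merged peaks, 3 in Ank3 and 2 in Ank2. The highest placed of these lay in intron 1 of Ank2 (chr3:127463905-127464407), 34.8 kb from the first start, at 30.5% and 29.6% of the epithelial lists. It lies in the stretch upstream of the second start that had few peaks in any list.

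**Figure D4:**
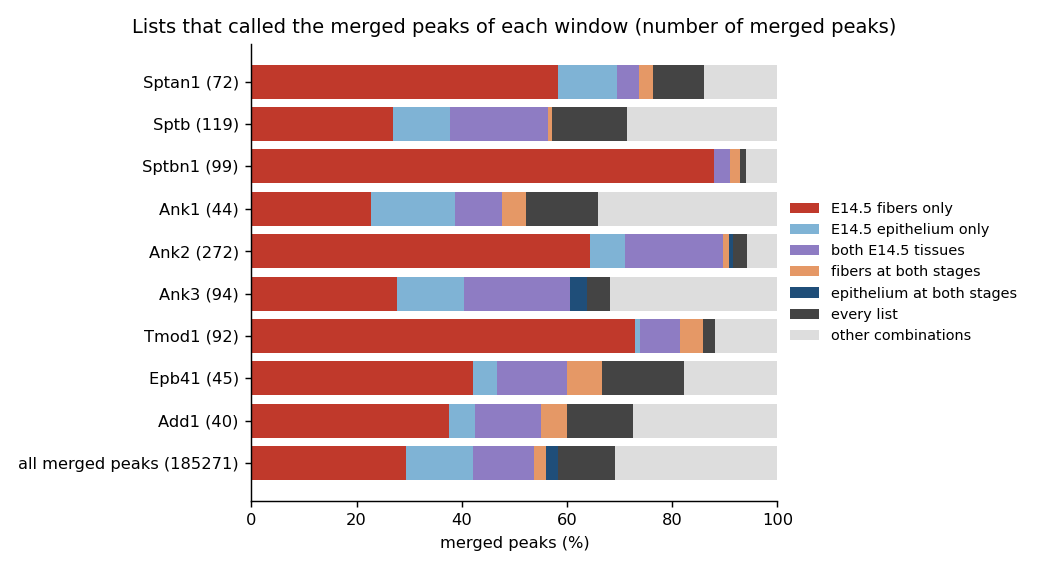
Share of the merged peaks of each window (percent, number in brackets) by the lists that called them, with all merged peaks in the lowest bar. The red part, called in E14.5 fibers only, is widest in Sptbn1 (87 of 99) and Tmod1 (67 of 92) and is 29.3% for all merged peaks.

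Along the gene, the 6 members with at least 2 times the coverage in E14.5 fibers fell into different shapes. In Epb41, Tmod1 and Add1 part 1 of 10 was the most covered, with 46.9%, 76.6% and 17.2%. In Sptbn1 and Ank2 part 1 was the least covered, with 5.0% and 2.69%, and the maxima lay in parts 7 and 3, at 65.7% and 27.6%. Sptan1 had 29.9% or more in parts 1, 2, 4 to 6 and 10.

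**Figure D5:**
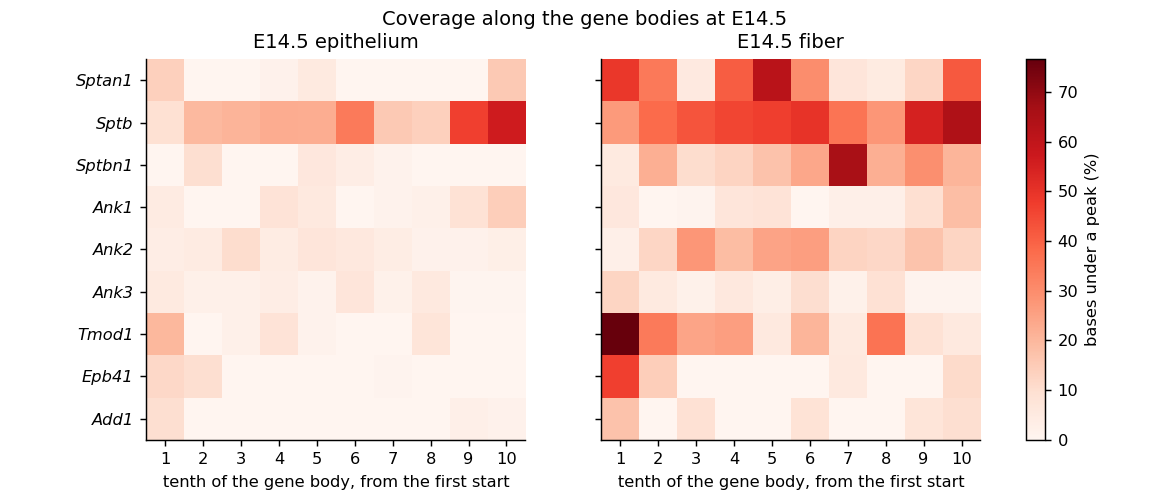
Bases under a peak (percent, colour) in the 10 equal parts of each gene body from the first start, in the E14.5 epithelium and E14.5 fiber lists on 1 colour scale. Fibers exceed epithelium along most of Sptan1, Sptbn1, Ank2 and Tmod1, and the darkest field is part 1 of Tmod1 (76.6%).

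The 5 motifs were counted in 200 bp around the summit of each merged peak. Over the 661 gene body peaks of the members, 21.2% held the Maf letters, 14.4% Sox, 13.8% Tead, 6.05% AP-1 and 5.90% Gata. Over all merged peaks the shares were 23.1%, 10.9%, 13.7%, 6.58% and 6.16%. The 371 E14.5 fiber-only peaks of the gene bodies held Maf in 19.9% and Sox in 14.0%, where the same kind of peak over the genome held 27.0% and 12.4%. Among single genes, the Maf letters were in 12 of 35 peaks of Tmod1 and 44 of 268 of Ank2, and the Sox letters in 47 of the 268 of Ank2. The windows differ in base composition, with a median GC content of 49.5% over the member gene bodies and 53.0% over all merged peaks.

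Other genes of the skeleton were looked at as lists, put together by family or known binding, with earlier results of these data known. At least 2 times the coverage in E14.5 fibers was found for 2 of the 6 other 4.1 proteins covered in both E14.5 lists (Epb41l2 and Epb41l4a) and 1 of 2 other adducins (Add2). The same held for 2 of 3 other tropomodulins (Tmod2 and Lmod1) and 2 of 11 partners of the actin filament (Capzb and Dmtn). Of 7 membrane anchors it held for 3, all of which are ankyrin-binding adhesion molecules (Nrcam, L1cam and Nfasc). The share over all genes was 24.3%. Of the genes covered in both E14.5 lists, 0 in each of these families had 0.5 times the epithelial coverage or less, as 1.33% of all such genes did. The anchor Slc4a1 was covered to 0.686% in epithelium and listed at 0 in fibers. At P0.5 the median ratio of fibers to epithelium was 0.994 in the 4.1 proteins, 0.893 in the adducins, 0.663 in the tropomodulins, 0.667 in the actin partners and 1.07 in the anchors, and 0.964 over all genes. Epb42, a red cell partner, had no promoter peak in any list, whereas Epb41l4a was covered to 37.1% in E14.5 fibers.

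The labels of the lists were checked on marker genes. The 6 fiber markers (Crybb1, Cryaa, Mip, Lim2, Bfsp1 and Bfsp2) had a median coverage of 6.08%, 87.3%, 2.49% and 10.6%, and the 6 epithelial markers 17.0%, 20.7%, 7.46% and 7.88%. The fiber markers had the higher coverage in fibers for 5 of 6 genes at E14.5 and for 6 of 6 at P0.5. Of the epithelial markers, 4 of 6 were higher in fibers at E14.5 and 1 of 6 at P0.5, and their median coverage was higher in fibers at both stages. Their median E14.5 ratio of fibers to epithelium was 1.18, beside 1.40 over all genes, and 1 of 6 lay above that all-gene median. For the fiber markers it was 10.3, and 5 of 6 lay above. The E14.5 epithelial label was thus borne out only relative to all genes, and not by coverage itself. As 5 members serve in red cells, erythroid markers were read too: Gata1, Alas2 and Hemgn had a coverage of 0 in every list, while Klf1 and Epor were covered to 29.2% and 42.1% in E14.5 fibers. Of 8 erythroid markers, 3, 3, 2 and 2 had a promoter peak. Median coverage of the 5 endothelial markers was between 0.555% and 1.57%, and that of the 4 macrophage markers between 0.980% and 4.25%. The 4 neural retina markers had a higher median coverage, at 13.2%, 16.2%, 7.14% and 4.76%, and Atoh7 and Rax were covered to 72.1% and 26.7% in E14.5 fibers. Of these 4, a promoter peak was found for 4, 4, 3 and 1. The part of such cells in the coverage of the members was not tested.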

How the data were processed

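Peaks were analysed from ATAC-seq of 8 libraries in 4 groups. Before deposit, the authors trimmed and aligned the reads (mm10, the same sequence as GRCm38), discarded mitochondrial reads and duplicates, and ran MACS2 with 0.05 as the q value limit. The submitters' processing notes name Trim Galore 0.4.1, Bowtie2 2.3.3.1, SAMtools 1.2, Picard 2.1.1 and MACS2 2.1. The authors' fold enrichment, a ratio of reads at the summit to local background, was ranked within its list. The −log10 p and −log10 q values, as deposited by the authors, served only for alternatives. The lists pool 2 libraries and hold no read counts or values per library, so neither depth nor replicate error can be read from them and no test was made. Every list was assigned to a group, with 0 columns left over.

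Gene bodies and starts came from 45756 curated RefSeq transcripts (GRCm38). Curated starts within 500 bp formed 1 group. An overlap of 1 bp counted, promoters reached 2 kb, and peaks were merged at 10 bp. Coverage, merging and overlap were tested on simulated peaks, and 100% of 3000 sites and 1000 intervals came out right. Alternatives were a q value under 0.001, equal numbers of peaks, predicted transcripts, other windows and merge distances, and ranks by p value. The tools were python 3.11.15, pandas 2.3.3, numpy 2.4.6, pysam 0.24.0, samtools 1.23.1 and matplotlib 3.10.9.

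The members and lists were chosen with earlier results of these data known. By rule, all 9 members were named, with their highest-ranked promoter peak and other peak, their widest peak, and up to 2 peaks called in both lists of 1 tissue and none of the other. Genes of the other lists were to be named by the highest and lowest fiber coverage. Those named for a ratio of 2 or more, the marker genes at 0, the shapes along the gene, the ratios themselves, the comparison with long genes and the split of gene bodies at the second start were chosen with their values in view. Here, the ENCODE blacklist was not used. 1 list of related genes is not reported here.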

Additional observations from a re-analysis of the deposited data

How the results depend on the processing

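No paired analysis was possible because the lists pool the 2 libraries of each group, and for the same reason no library could be left out in turn. Coverage of each of the 9 genes was highest in E14.5 fibers under every alternative run on coverage, and 6 of 9 stayed at 2 times or more between E14.5 tissues. Of the main values under their alternatives, 76 moved by at most 1.5 times and 16 by more. With a q value under 0.001, P0.5 fibers fell to a median coverage of 0.946% and 81 window peaks, 0 members had 2 times the coverage in P0.5 fibers, and 3 merged peaks were called in fibers at both stages and 3 in epithelium at both stages (0.437% each, beside 1.08% and 3.11% of all merged peaks). With equal numbers of peaks, median coverage in E14.5 fibers was 8.80%, the E14.5 lists kept 204 epithelial and 300 fiber window peaks, and 127 merged peaks were called in E14.5 fibers only, 11 in fibers at both stages (2.70%, beside 1.87% of all) and 10 in epithelium at both stages (2.46%, beside 4.89%). Without the first 2 kb of each gene, median coverage in P0.5 fibers was 1.21% and 3 members had 2 times the coverage in P0.5 fibers. In gene bodies alone, P0.5 fibers had 101 peaks, and 12 merged peaks were called in fibers at both stages and 33 in every list. The q value and equal-number alternatives work by removing peaks, and the gene body one by removing the flanks. The alternatives on the ratio were chosen after seeing the data. Predicted transcripts gave 8 members a promoter peak in P0.5 fibers. Among single members, without the first 2 kb the E14.5 ratio was 8.05 for Add1 and 10.97 for Tmod1, and the fiber-stage ratio of Add1 was 4.65. With a q value under 0.001 the fiber-stage ratio was 28.9 for Sptan1, 87.7 for Ank2, 51.5 for Ank3 and 23.6 for Tmod1, and the P0.5 ratio was 0.692 for Sptan1 and 0.135 for Ank2. With equal numbers of peaks the fiber-stage ratio of Ank2 was 22.7. The pooled lists limit every value to a description.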
